A study of Mus musculus with 6 samples.

Results

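The Krueppel-like factors (KLFs) are a family of transcription factors, of which 10 genes were followed here in epididymal white fat of mice: Klf2, Klf3, Klf4, Klf5, Klf6, Klf7, Klf9, Klf10, Klf13 and Klf15. Their probe sets were those that the platform annotation pairs with exactly 1 gene symbol, that symbol being 1 of the 10. This gave 34 of the 45101 probe sets on the array, for 10 of 18194 gene symbols. RNA came from 3 transgenic and 3 wild type male mice aged 10 weeks, all C57BL6;SJL, with 1 mouse per Affymetrix MOE430v2.0 array. The aP2-nSrebp1c transgene expresses the nuclear form of SREBP-1c, an activator of lipid synthesis genes, from the promoter of the fat cell gene aP2 (Fabp4). The strain field of the transgenic mice is spelled in 3 ways (aP2-nSrebp1c Tg, aP2-nSrebp1 Tg and aP2-SREBP1c Tg), under 1 shared title. The labels call the transgenic mice lipodystrophic, and the wild type mice came from matching litters. Since each array holds a different animal, the spread within a group mixes differences between mice with those of handling.

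KLF proteins bind GC-rich and CACCC sequences through zinc fingers at their C-terminal end, and differ in the cofactors that the rest of the protein recruits. In fat cell formation they act around the regulators C/EBPβ, C/EBPα and PPARγ. Klf4 acts early, Klf5, Klf6, Klf9 and Klf15 promote the process, and Klf2, Klf3 and Klf7 hold it back. In blood vessels Klf2 and Klf4 are leading factors of the quiescent endothelium.

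The deposited values are MAS5 signals, linear intensities with 1 value per probe set and array. Differences were tested with limma on log2(signal + 16) over all 27023 probe sets that passed a filter on dim signals, and p-values were adjusted over all of them by Benjamini and Hochberg's method (BH). The filter kept 30 of the 34 Klf probe sets. Fold changes are transgenic over wild type and, because of the offset of 16, too small for dim probe sets. Of the 10 genes, 3 had 1 probe set and 7 had several.

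The array of transgenic replicate 2 stood apart. Its beta-actin control was 122 times as bright at the 3′ as at the 5′ probe set, a ratio that is high in shortened RNA, against 1.11 to 1.81 times on the other arrays. It gave the lowest signal of all 6 arrays for 21 of the 30 tested Klf probe sets (70%) and for 44.6% of all tested ones. A further split ran through both genotypes. The 3′ over 5′ ratio of the Pcx control was 3.1 in transgenic replicate 1 and 3.06 in wild type replicate 3 (the low class), and 14.1 to 52 on the other arrays (the high class).

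The promoters of Klf15, Klf4 and Klf2 are shown because these genes were called lower in transgenic fat, Klf15 on all 6 arrays and the other two on the 5 without transgenic replicate 2, and because SREBP proteins can bind the E-box CACGTG. The windows run from 250 bases before the start of the gene to 10 bases after it, in the RefSeq table of build GRCm38.p6, which held 8 of the 10 genes (all but Klf5 and Klf10). They lie at chr6:90462326-90462585 on the plus strand for Klf15, chr4:55532466-55532725 on the minus strand for Klf4 and chr8:72318812-72319071 on the plus strand for Klf2. Each is written 5′ to 3′ along the gene, with CACGTG in capitals.
Klf15: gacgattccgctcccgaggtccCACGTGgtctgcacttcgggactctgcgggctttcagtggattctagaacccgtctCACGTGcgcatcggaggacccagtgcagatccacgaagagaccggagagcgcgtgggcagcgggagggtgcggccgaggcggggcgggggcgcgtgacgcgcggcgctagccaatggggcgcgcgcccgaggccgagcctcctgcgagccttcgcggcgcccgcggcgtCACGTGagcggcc
Klf4: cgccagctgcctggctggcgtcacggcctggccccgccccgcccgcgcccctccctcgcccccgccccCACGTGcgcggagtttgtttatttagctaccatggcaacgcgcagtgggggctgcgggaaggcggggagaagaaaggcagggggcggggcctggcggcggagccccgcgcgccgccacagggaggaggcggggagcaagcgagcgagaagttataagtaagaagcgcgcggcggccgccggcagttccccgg
Klf2: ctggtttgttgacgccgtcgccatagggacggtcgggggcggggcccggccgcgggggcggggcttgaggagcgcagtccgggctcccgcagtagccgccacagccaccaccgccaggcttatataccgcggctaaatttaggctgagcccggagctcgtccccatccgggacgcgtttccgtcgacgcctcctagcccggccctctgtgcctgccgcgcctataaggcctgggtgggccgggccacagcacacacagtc

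The Klf15 window held CACGTG 3 times, beginning 228, 172 and 3 bases before the start. The Klf4 window held it 1 time, 182 bases before the start, and the Klf2 window 0 times. Among the other 5 windows, that of Klf6 held it 1 time, 43 bases before the start. Of all 32817 windows of this length in the table, 6.34% held CACGTG at least 1 time and 0.0731% at least 3 times. CACGTG reads the same on both strands. The sterol regulatory element, searched as TCACNCCAC on both strands, was in 0 of the 8 Klf windows and in 1.10% of all. The boxes that KLF and Sp proteins bind were common: CACCC was on either strand in 6 of 8 Klf windows and in 53.2% of all, and GGGCGG in 7 of 8 and in 33.4%. A TCACNCCAC match can itself contain CACCC, and base composition was not matched in these shares. The matches describe letters in the windows, and no binding was measured.

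Klf15 was the Klf gene that fell in transgenic fat in the fit of all 6 arrays, where 1 of 30 tested probe sets was called lower, beside 1.30% of all tested probe sets. By limma 0 were called higher, beside 1.67% of all, and at an unadjusted p under 0.05 the counts were 1 higher and 4 lower, beside 7.76% and 8.66% of all. With transgenic replicate 2 left out, Klf2, Klf15 and both probe sets of Klf4 were lower (4 probe sets) and Klf10 was higher (1), beside 6.23% and 6.96% of all. Transgenic and wild type signals did not overlap for 7 lower and 1 higher Klf probe sets, beside 15.3% and 11.9% of all.

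Counted by the brightest tested probe set of each gene, 1 of 10 Klf genes fell and 0 rose, beside 1.54% and 2.23% of 13112 genes. At an unadjusted p under 0.05 in limma, 3 of the 10 were lower and 1 was higher, beside 8.95% and 9.44% of genes. On the 5 arrays other than transgenic replicate 2, 3 genes fell and 1 rose, beside 7.33% and 8.04%. The median of the 10 log2 fold changes was −0.39, against −0.040 over all genes, and −0.41 against 0.024 without that array.

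**Figure D1:**
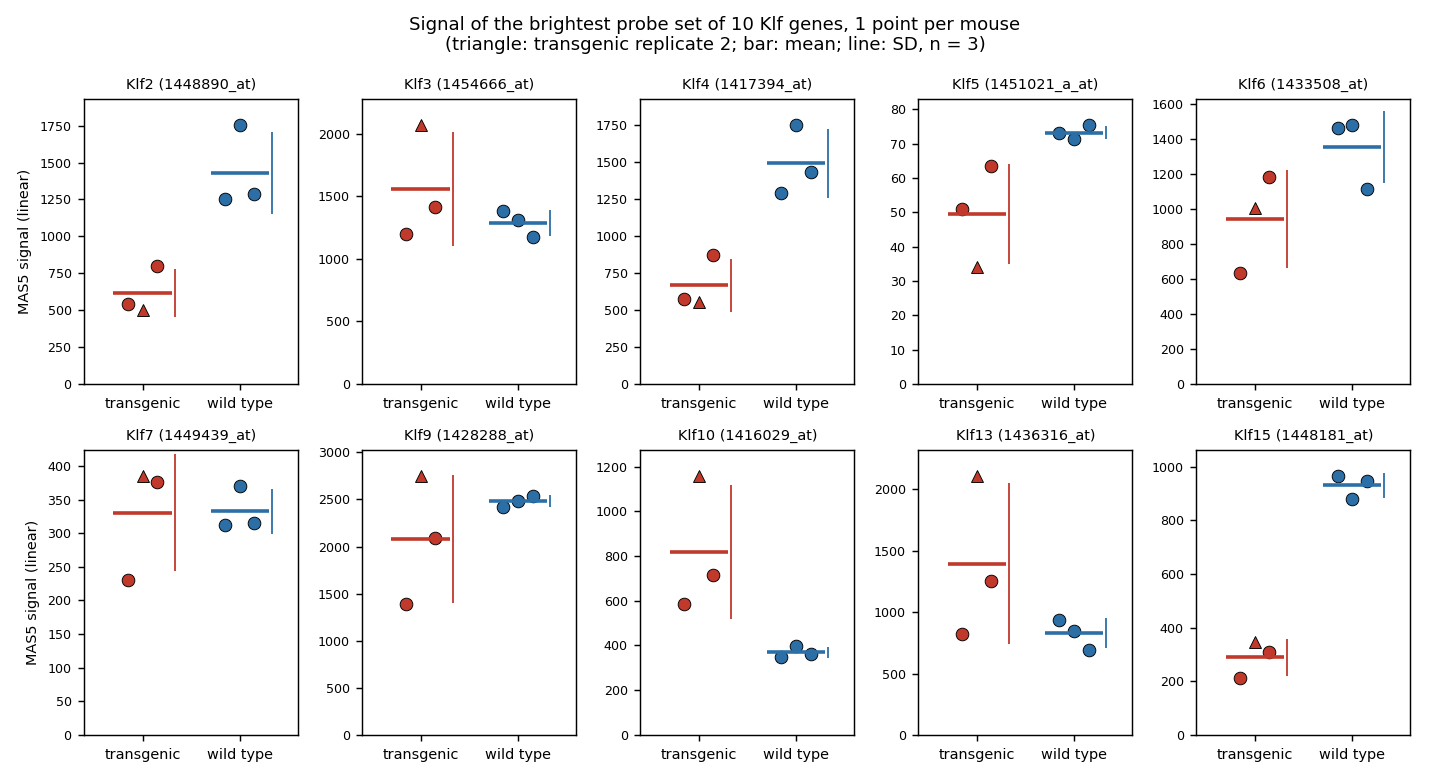
MAS5 signal (linear, vertical axis from 0) of the brightest probe set of each of the 10 Klf genes in transgenic and wild type fat, 1 point per mouse, with a bar for the mean and a line for the SD (n = 3 each) and a triangle for transgenic replicate 2. Klf15, Klf2, Klf4 and Klf5 were lower in each transgenic mouse than in any wild type mouse, and Klf10 was higher.

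Klf15 is induced late in fat cell formation and by glucocorticoids, and in liver and muscle it controls genes of amino acid breakdown. Its only probe set, 1448181_at, had signals of 213.2, 344.6 and 310.4 in the transgenic mice (replicates 1, 2 and 3), against 964.4, 877.7 and 947.5 in the wild type mice. The groups did not overlap, and the highest transgenic signal was that of replicate 2. The log2 fold change was −1.66 ± 0.26 (SE, BH-adjusted p = 0.0242), a signal 3.15-fold lower. With transgenic replicate 2 left out it was −1.79 ± 0.20 (SE, BH-adjusted p = 0.000461). The 2 Pcx classes each gave a lower value, −2.07 on the log2 scale in the low class (transgenic replicate 1 minus wild type replicate 3) and −1.52 in the high class (transgenic replicate 3 minus the mean of wild type replicates 1 and 2). The value lay between −1.79 and −1.46 in the 6 fits with 1 array left out. The call was lost without transgenic replicate 3 (BH-adjusted p = 0.0756), without wild type replicate 1, 2 or 3 (0.16, 0.161 and 0.151), and with each array centred on its median (−1.54, BH-adjusted p = 0.0769).

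The genes with profiles most like that of Klf15 were Asph, which encodes an aspartate and asparagine hydroxylase, Tmem182, which encodes a transmembrane protein, and the amylase gene Amy1. Likeness was the root mean square difference between log2 profiles over the 6 arrays, each centred on its mean. It was 0.078, 0.10 and 0.11 for these 3, against a median of 0.92 over 13111 genes. Asph had signals of 193.9, 335.3 and 278 in transgenic, against 882, 917.3 and 949.4 in wild type mice. Tmem182 had 518.3, 965.8 and 733.3 in transgenic, against 2687.6, 2228.1 and 2453.3 in wild type mice. Amy1 had 815.1, 1059 and 954.2 in transgenic, against 3060.3, 2874.5 and 2793.7 in wild type mice. All 3 thus had their highest transgenic signal in replicate 2, as Klf15 did. Being chosen for this likeness, they get no test here.

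Klf2 restrains Pparg in preadipocytes and keeps endothelial cells quiescent under blood flow. Its probe set, 1448890_at, had signals of 541, 500.6 and 801.6 in the transgenic mice (replicates 1, 2 and 3), against 1254.1, 1752 and 1287.1 in the wild type mice. The groups did not overlap. The log2 fold change of −1.21 ± 0.28 (SE, BH-adjusted p = 0.0788) did not pass the threshold, and that of −1.08 ± 0.23 (SE, BH-adjusted p = 0.0127) on 5 arrays, without transgenic replicate 2, did, at a signal 2.12-fold lower. After quantile normalization of all 6 arrays it was −1.20 (BH-adjusted p = 0.0363). The within-class differences were −1.23 in the low and −0.87 in the high Pcx class.

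Klf4, an early activator of Cebpb in fat cell formation and a partner of Klf2 in endothelium, had 2 probe sets. The brighter, 1417394_at, had signals of 575.6, 553 and 875.2 in transgenic, against 1293.5, 1749.4 and 1432.6 in wild type mice. The dimmer, 1417395_at, had 292.1, 6.4 and 194.3 in transgenic, against 376.6, 539.9 and 646 in wild type mice. On both, each transgenic mouse was below each wild type mouse, and on the dimmer the signal of transgenic replicate 2 was close to 0. For the brighter, the log2 fold change was −1.16 ± 0.27 (SE, BH-adjusted p = 0.0821) with all arrays and −1.04 ± 0.22 (SE, BH-adjusted p = 0.0136) with transgenic replicate 2 left out. For the dimmer, it was −2.21 ± 0.94 (SE, BH-adjusted p = 0.308) and −1.04 ± 0.27 (SE, BH-adjusted p = 0.0313). Quantile normalization of the 6 arrays gave −1.16 (BH-adjusted p = 0.0356) for the brighter. On the 5 arrays it ended the call of the dimmer, at −1.04 (BH-adjusted p = 0.0545). In the low Pcx class the differences were −1.29 and −1.10 for the brighter and the dimmer, and in the high class −0.77 and −1.15.

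Klf10, induced early by TGF-β, was the member called higher in transgenic fat when transgenic replicate 2 was left out. Its probe set, 1416029_at, had signals of 584.8, 1157.2 and 713.7 in the transgenic mice (replicates 1, 2 and 3), against 350.1, 397.1 and 360.9 in the wild type mice. The groups did not overlap, and transgenic replicate 2 was the highest. The log2 fold change of 1.06 ± 0.31 (SE, BH-adjusted p = 0.147) did not pass the threshold. On the 5 arrays other than that one it was 0.78 ± 0.19 (SE, BH-adjusted p = 0.0227), a signal 1.72-fold higher, which passed.

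The other members that promote fat cell formation had log2 fold changes below 0 on all of their tested probe sets on 6 arrays. This was not particular to them: 27 of the 30 tested Klf probe sets were below 0 on 6 arrays. Their median was −0.67, against −0.094 over all tested probe sets, whose share below 0 was not counted. Without transgenic replicate 2, 22 of 30 were below 0, with medians of −0.32 and 0.026, and Klf5 1451739_at was then at 0.069. As deposited, none of Klf5, Klf6 and Klf9 passed the test on 6 arrays or on the 5 without transgenic replicate 2. Klf9, induced by glucocorticoids and thyroid hormone, had log2 fold changes of −1.93 to −0.31 (BH-adjusted p = 0.387 to 0.709) on 6 tested probe sets. On 5 arrays they were −0.65 to −0.28 (BH-adjusted p = 0.0803 to 0.874). The brightest, 1428288_at, had signals of 1394, 2747.2 and 2095.5 in transgenic, against 2423.5, 2486.8 and 2541.7 in wild type mice, so that transgenic replicate 2 was the highest of all mice and the other transgenic mice were below the wild type ones. Probe set 1436763_a_at had 401, 19.3 and 605.5 in transgenic, against 720.7, 780.7 and 851.3 in wild type mice, with no overlap and with transgenic replicate 2 the lowest of all. The same array was thus at the top on 1 probe set of Klf9 and at the bottom on 5. Quantile normalization changed the call of 2 Klf9 probe sets on the 5 arrays without it, with −0.61 (BH-adjusted p = 0.00885) for 1428288_at and −0.67 (BH-adjusted p = 0.0222) for 1436763_a_at.

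Klf6, an early response gene that represses the preadipocyte gene Dlk1, had log2 fold changes of −1.64 to −0.16 (BH-adjusted p = 0.416 to 0.842) on 5 tested probe sets, and of −0.62 to −0.37 (BH-adjusted p = 0.17 to 0.822) on 5 arrays. The brightest, 1433508_at, had signals of 634.7, 1004.4 and 1185.5 in transgenic, against 1465.7, 1479.3 and 1115.9 in wild type mice. The groups overlapped. The suffixes of 1447448_s_at and 1459718_x_at mark probes that may also match other transcripts. Klf5, which acts between C/EBPβ and Pparg, was dim on its 2 tested probe sets. The brighter, 1451021_a_at, had 51, 34.2 and 63.4 in transgenic, against 73, 71.3 and 75.3 in wild type mice, without overlap and with a log2 fold change of −0.47 ± 0.24 (SE, BH-adjusted p = 0.395).

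Klf13, which like Klf9 and Klf10 carries a Sin3A-binding repressor domain, gave opposite signs on its 2 tested probe sets. The brighter, 1436316_at, had signals of 819.9, 2107.7 and 1257.3 in transgenic, against 939.4, 849.2 and 694.9 in wild type mice, which overlap. Its log2 fold change was 0.65 ± 0.37 (SE, BH-adjusted p = 0.439). The dimmer, 1432543_a_at, had 554.7, 23.6 and 209.2 in transgenic, against 167.4, 202.4 and 490.1 in wild type mice. It had −0.66 ± 0.95 (SE, BH-adjusted p = 0.749) on 6 arrays but 0.39 ± 0.47 (SE, BH-adjusted p = 0.661) on 5, so its negative sign was not seen with transgenic replicate 2 left out.

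The remaining members that hold fat cell formation back, Klf3 and Klf7, were not called on 6 arrays or on the 5 without transgenic replicate 2. Klf3, which represses through the corepressor CtBP, had log2 fold changes of −1.26 to 0.24 (BH-adjusted p = 0.458 to 0.737) on 6 tested probe sets, and of −0.26 to 0.16 (BH-adjusted p = 0.522 to 0.969) on 5 arrays. The brightest, 1454666_at, had signals of 1197.1, 2068.2 and 1412.3 in transgenic, against 1383.1, 1308.1 and 1176.6 in wild type mice. The groups overlapped. Klf7, described as a repressor of fat cell formation in human preadipocytes, had −1.78 to −0.037 (BH-adjusted p = 0.269 to 0.958) on 4 tested probe sets, and −1.17 to 0.16 (BH-adjusted p = 0.174 to 0.891) on 5 arrays. The brightest, 1449439_at, had 230.9, 384.9 and 376.7 in transgenic, against 311.6, 370.6 and 315.6 in wild type mice. The lowest value was that of 1419354_at, with 117.1, 3.3 and 19.3 in transgenic, against 120.9, 102.5 and 210.2 in wild type mice, where the groups overlapped as well.

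**Figure D2:**
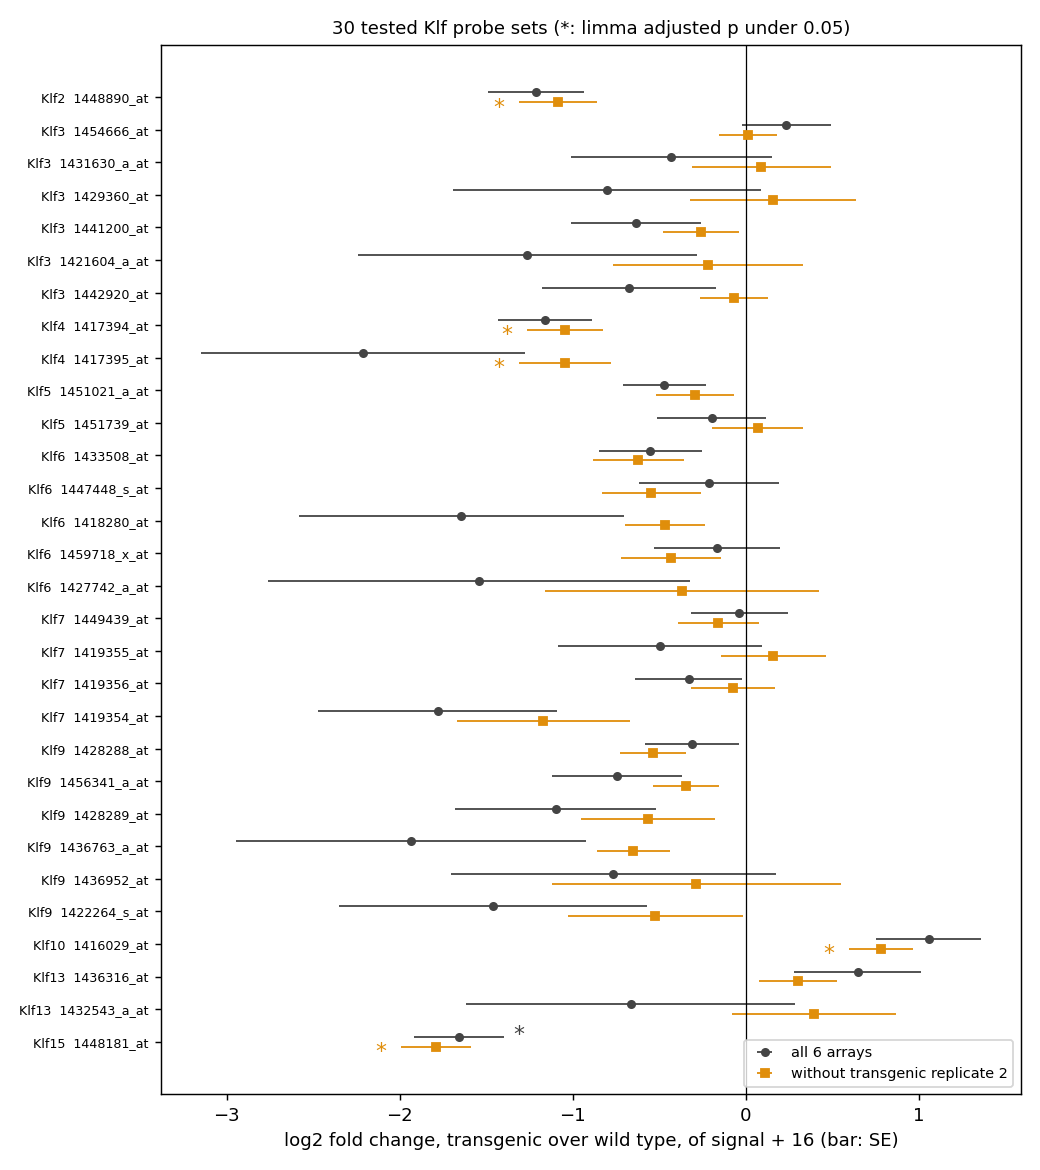
Log2 fold change (transgenic over wild type, of signal + 16, horizontal axis) with its SE as a bar for the 30 tested Klf probe sets (vertical axis, by gene), on all 6 arrays (circles) and without transgenic replicate 2 (squares), with a star for an adjusted p under 0.05. Klf15 is starred in both, and Klf2, both probe sets of Klf4 and Klf10 are starred without transgenic replicate 2.

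Probe sets of the same gene often disagreed within a genotype, and in a shared way. In 11 of 30 Klf probe sets (36.7%), replicate 3 was the highest of the wild type mice and transgenic replicate 1 was above transgenic replicate 3, against 15.7% of all tested probe sets. Wild type replicate 3 and transgenic replicate 1 are the arrays of the low Pcx class. The 11 were 3 probe sets each of Klf3 and Klf9, 2 of Klf7 and 1 each of Klf4, Klf6 and Klf13. Klf6 1427742_a_at had signals of 539.9, 3.3 and 73.2 in transgenic, against 157.1, 159.3 and 765.3 in wild type mice. There, transgenic replicate 1 exceeded transgenic replicate 3 by 2.64 on the log2 scale, and wild type replicate 3 exceeded the mean of the other wild type mice by 2.17. For Klf9 1436952_at these differences were 2.33 and 2.52, and for Klf9 1428288_at −0.58 and 0.050. The part of RNA quality in them was not tested, and the place of each probe set in its transcript was not used here.

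**Figure D3:**
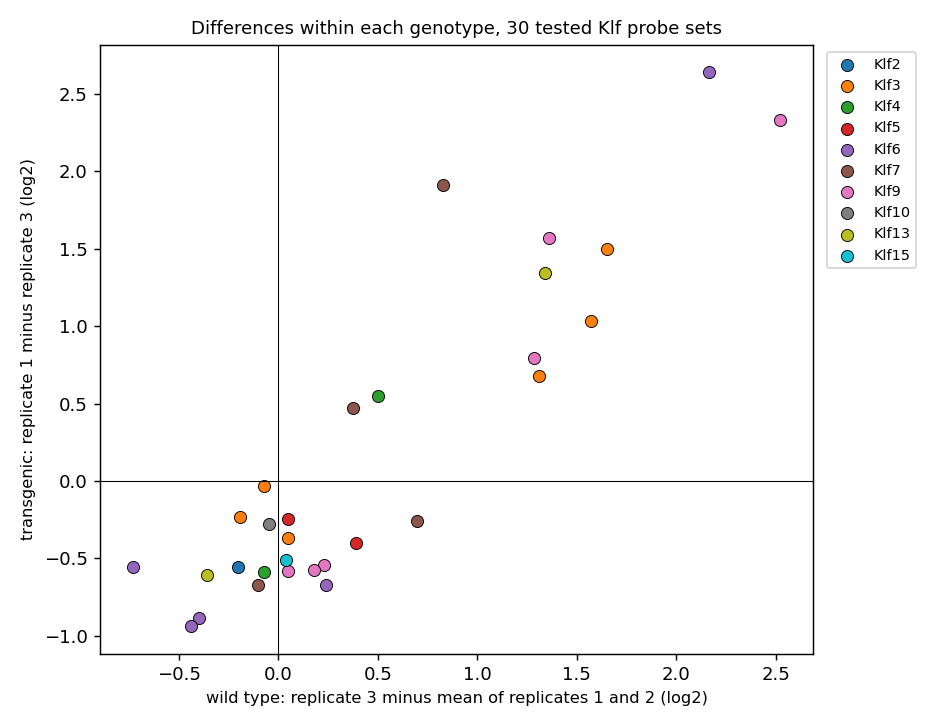
Each of the 30 tested Klf probe sets by the difference of transgenic replicates 1 and 3 (vertical axis, log2 of signal + 16) and the difference of wild type replicate 3 and the mean of wild type replicates 1 and 2 (horizontal axis, same scale), with 1 colour per gene. Some probe sets of Klf3, Klf4, Klf6, Klf7, Klf9 and Klf13 lie at the upper right while others of the same genes lie below 0 on the vertical axis.

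Transgenic replicate 2, an array of the high class, was left out of the counts within the Pcx classes. In 18 of 30 Klf probe sets transgenic replicate 1 was below wild type replicate 3 and transgenic replicate 3 was below both wild type replicates 1 and 2, beside 26.8% of all tested probe sets. The opposite held for 4, beside 31.8%: Klf10, both of Klf13 and Klf3 1454666_at. On the array left out, Klf13 1432543_a_at, among these 4, had its lowest signal of all mice (23.6). Klf9 1428288_at, among the 18, had its highest signal of all mice there (2747.2). By the brightest probe set of each gene, 6 of 10 were lower in both classes, beside 26.9% of genes, and 3 were higher, beside 34.3%. Probe sets of 1 gene share their RNA: 5 of the 18 belong to Klf9 and 4 to Klf6.

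With the Pcx class as a block, and transgenic replicate 2 left out, 12 Klf probe sets were lower and 1 was higher, beside 10.2% and 11.8% of all. The 12 were Klf15, Klf2, both probe sets of Klf4, 5 of 6 of Klf9, 2 of 5 of Klf6 and 1 of 4 of Klf7. As deposited, those of Klf9, Klf6 and Klf7 were not called on the same 5 arrays without the block. In this fit the low class held 1 transgenic and 1 wild type array, and the high class 1 and 2. Its p-values thus lean on the variance that limma shares between probe sets. For Klf9 1428288_at the value was −0.50 (BH-adjusted p = 0.0406), and for Klf6 1433508_at it was −0.52 (BH-adjusted p = 0.0347). Of Klf3, Klf5 and Klf13, 0 probe sets were called. With the same block and all 6 arrays the Klf call was that of Klf15 (BH-adjusted p = 0.0412).

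**Figure D4:**
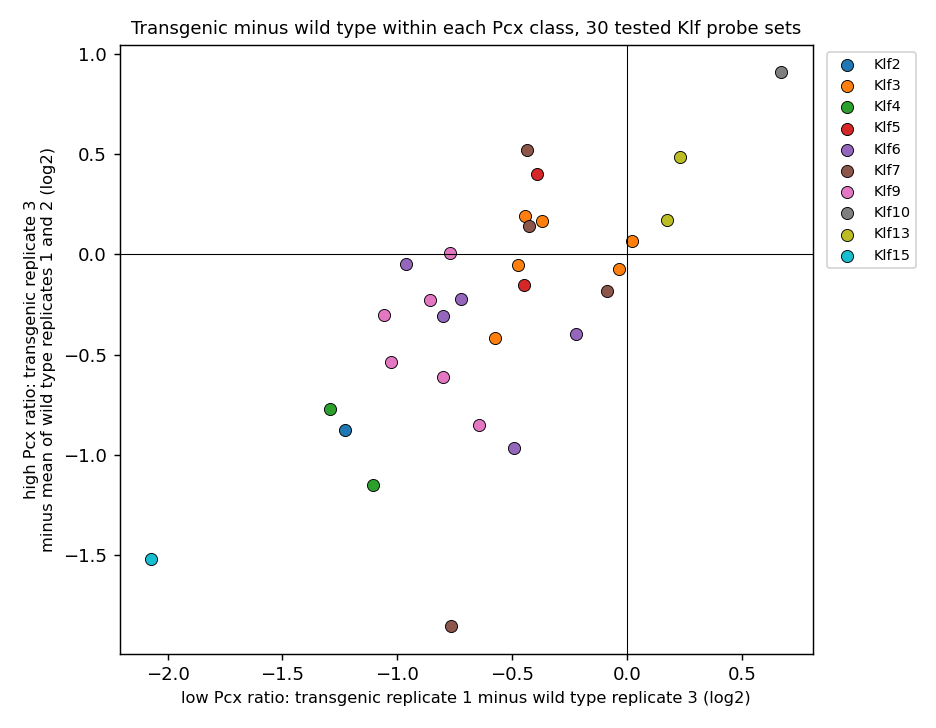
Transgenic minus wild type difference (log2 of signal + 16) of the 30 tested Klf probe sets in the high Pcx class (vertical axis, transgenic replicate 3 minus the mean of wild type replicates 1 and 2) against that in the low class (horizontal axis, transgenic replicate 1 minus wild type replicate 3), with 1 colour per gene. Klf15, Klf2 and Klf4 lie at the lower left, as do some probe sets of Klf3, Klf5, Klf6, Klf7 and Klf9. Klf7 1419354_at is the lowest on the vertical axis (−1.85). Klf10 is farthest to the upper right with both Klf13 points nearer to 0, and the Klf9 points lie left of 0.

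The rest of the family, its cofactors and the lists that follow were counted by the brightest tested probe set of each gene. Of all 13112 genes so counted, 2.23% were called higher and 1.54% lower on 6 arrays. On 5 arrays these shares were 8.04% and 7.33%. At an unadjusted p under 0.05 in limma on 6 arrays, 9.44% were higher and 8.95% lower. Of 16 other Klf and Sp genes, 8 were tested and 0 were called by limma on 6 or on 5 arrays, with 1 and 2 lower at an unadjusted p under 0.05, where 8.95% and 14.0% of all genes were. Of 19 tested cofactors and degraders of KLF proteins, 0 were called on 6 arrays, with 1 higher at an unadjusted p under 0.05. On 5 arrays 1 was higher: Sap30, a subunit of the Sin3 complex, named after its values were seen. It had signals of 237.2, 547.1 and 358.5 in transgenic, against 146.2, 141.1 and 127.3 in wild type mice, with 1.29 ± 0.33 (SE, BH-adjusted p = 0.108) on 6 arrays and 0.9998 ± 0.22 (SE, BH-adjusted p = 0.0176) on 5.

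Genes described elsewhere as KLF targets moved both ways. The part of the KLFs in their values was not tested, and some of them, such as Lep, are counted in other lists here too. Of 20 tested, 2 rose and 4 fell, beside 2.23% and 1.54% of all genes. On 5 arrays 3 rose and 8 fell, beside 8.04% and 7.33%. The median log2 fold change was −0.999 on 6 arrays and −0.30 on 5. Gpt, the alanine aminotransferase gene, depends on Klf15 in mouse liver. It had signals of 261, 145.5 and 250.7 in transgenic, against 2697.5, 2206.3 and 2456.3 in wild type mice, without overlap, and a log2 fold change of −3.43 ± 0.29 (SE, BH-adjusted p = 0.00324). Prodh, the proline dehydrogenase gene, had 201.7, 219.1 and 233.8 in transgenic, against 517.6, 541.2 and 613.6 in wild type mice, and also fell: −1.29 ± 0.22 (SE, BH-adjusted p = 0.0337). Acss2, the gene of the cytosolic acetyl-CoA synthetase and a target of SREBPs, had 4721.1, 4438.1 and 4892.1 in transgenic, against 1614.1, 1455.3 and 2535.3 in wild type mice. It rose, with 1.36 ± 0.24 (SE, BH-adjusted p = 0.0359). It is in the list by mistake, since the acetyl-CoA synthetase described as a Klf15 target in muscle is the mitochondrial one, made by Acss1. Without it, 1 of 19 rose and 4 fell on 6 arrays, and 2 rose and 8 fell on 5, with medians of −1.15 and −0.36. The cell cycle inhibitor gene Cdkn1a, reported as a target of Klf4 and Klf6, rose, with 1.33 ± 0.22 (SE, BH-adjusted p = 0.0283). Prodh and Cdkn1a were named after their values were seen. Among the fits with 1 array left out, the BH-adjusted p was as high as 0.213 for Prodh, 0.187 for Acss2 and 0.185 for Cdkn1a.

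Thbd encodes the endothelial anticoagulant receptor thrombomodulin and is induced by Klf2 and Klf4. It had signals of 683.9, 787.1 and 900.5 in transgenic, against 2640.4, 2692.7 and 2513.6 in wild type mice, without overlap, and fell, with −1.71 ± 0.20 (SE, BH-adjusted p = 0.00837), a p that was as high as 0.0966 with 1 array left out. Nos3, the endothelial nitric oxide synthase gene, induced by the same 2 factors and named after its values were seen, had 348, 81.1 and 378.3 in transgenic, against 903.6, 973.7 and 927.1 in wild type mice. Its log2 fold change was −1.98 ± 0.54 (SE, BH-adjusted p = 0.129) on 6 arrays and −1.33 ± 0.17 (SE, BH-adjusted p = 0.000895) on 5. From the same list 3 more genes are given, and the part of Klf2 and Klf4 in any of these genes was not tested. On 5 arrays Cebpb, which Klf4 activates, rose (0.77 ± 0.16 SE, BH-adjusted p of 0.0140). Pparg, which Klf2 restrains, fell (−1.13 ± 0.17 SE, BH-adjusted p of 0.00237). S1pr1 was not called on 5 arrays (−0.36 ± 0.20 SE, BH-adjusted p of 0.317) or on 6 (−1.15 ± 0.65 SE, BH-adjusted p of 0.440). Its signals were lower in each transgenic mouse than in any wild type mouse. These 3 were also named after their values were seen. Lep, the leptin gene, had 229.5, 447.7 and 382.1 in transgenic, against 5881.4, 4410.8 and 4114.5 in wild type mice, and fell, with −3.74 ± 0.31 (SE, BH-adjusted p = 0.00301).

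Endothelial markers bear on Klf2 and Klf4. Of 12, 0 were called on 6 arrays by limma, with 5 lower at an unadjusted p under 0.05, beside 8.95% of genes. On 5 arrays 8 fell, 0 rose and 4 were not called, beside 7.33% of all genes that fell. Their summed signal was 3984.6 to 9627 in transgenic and 13580.8 to 15046.9 in wild type mice, without overlap, and 0 markers were at 0 on every array. In bulk tissue, fewer cells of a type and less RNA per cell cannot be told apart, and the part of endothelial cells in the Klf2 and Klf4 values was not tested. Of 10 adipocyte markers, 2 fell (Lep and Adipoq) and 0 rose, beside 1.54% and 2.23% of all genes. On 5 arrays 5 adipocyte markers fell, beside 7.33%. Their summed signal was 52319.3 to 68131.2 in transgenic and 83444 to 92445.9 in wild type mice. Of 14 macrophage markers, 1 rose (Mpeg1, 2.37 ± 0.34 SE, BH-adjusted p of 0.0172) and 0 fell, beside 2.23% and 1.54% of all genes. On 5 arrays 8 macrophage markers rose and 1 fell, beside 8.04% and 7.33%. The 1 that fell was Cd163 (−1.20 ± 0.18 SE, BH-adjusted p of 0.00219), named after its values were seen. Their summed signal was 34893.9 to 46849.9 in transgenic and 22724.6 to 26467.6 in wild type mice.

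For the next lists too, 2.23% of all genes were called higher and 1.54% lower on 6 arrays, and 8.04% and 7.33% on 5. Of 8 mesothelial markers, 2 fell (Msln and Krt19), and 7 on 5 arrays. Their summed signal was 1417.5 to 2361.7 in transgenic and 5782.6 to 6704.6 in wild type mice. Of 6 smooth muscle markers 1 fell (Rgs5), and 3 on 5 arrays, with a sum of 5170.2 to 6469.1 in transgenic and 9094.8 to 10753.6 in wild type mice. Of 11 progenitor and fibroblast markers 1 fell (Dpp4), and on 5 arrays 2 rose and 2 fell. On 6 arrays 0 of 6 T and B cell markers, 0 of 3 epididymis markers and 0 of 3 red blood cell genes were called by limma. At an unadjusted p under 0.05, 1 T and B cell marker was higher and 1 red blood cell gene lower, beside 9.44% and 8.95% of all genes. On 5 arrays 1 T and B cell marker rose and 1 red blood cell gene fell. Summed signals of progenitor and fibroblast markers overlapped, at 25710.5 to 32086.3 in transgenic and 25876.5 to 28484.2 in wild type mice. Those of T and B cell markers (8 genes, 2 below the filter) were 572.8 to 777.3 and 424.8 to 441.1. For red blood cell genes they were 234.1 to 537.8 and 690.3 to 896.6, and for epididymis markers (9 genes, 6 below the filter) 148.7 to 294 and 223.4 to 350. The part of these cells in the KLF values was not tested.

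The regulators around the KLFs and the stimuli that induce them were counted likewise. Beside these counts, 2.23% of all genes rose and 1.54% fell on 6 arrays, and 8.04% and 7.33% on 5. Of 15 fat cell transcription factors, Srebf1 rose (1.08 ± 0.19 SE, BH-adjusted p of 0.0342) and Ebf2 fell (−1.72 ± 0.31 SE, BH-adjusted p of 0.0386), and on 5 arrays 5 rose and 5 fell. Whether the Srebf1 probe set also reads the transgene was not tested. Of 12 genes induced by glucocorticoids, which raise Klf9 and Klf15, 2 rose, the kinase gene Pdk4 (2.13 ± 0.33 SE, BH-adjusted p of 0.0239) and the metallothionein gene Mt1 (1.49 ± 0.15 SE, BH-adjusted p of 0.00565). In the same list the transcription factor gene Zbtb16 fell, with signals of 325.8, 221.9 and 340.8 in transgenic, against 2302.2, 1997.7 and 1515 in wild type mice, and a log2 fold change of −2.65 ± 0.28 (SE, BH-adjusted p = 0.00589). The median over the list was −0.039. Of 20 immediate early genes, 1 rose (Atf3, 1.59 ± 0.28 SE, BH-adjusted p of 0.0337) and 0 fell by limma. At an unadjusted p under 0.05 in limma, 3 immediate early genes were higher and 2 lower, beside 9.44% and 8.95% of all genes. On 5 arrays 3 rose and 2 fell. Of the genes of these lists named here as called on 6 arrays, Lep and Gpt kept their calls in every fit with 1 array left out (BH-adjusted p up to 0.0357 and 0.0357), and each of the others lost its call in at least 1 of these fits, the highest p per gene being 0.0522 to 0.247.

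The 4 Klf probe sets under the filter were dim and were not tested. Klf3 1458487_at had signals of 5.9 to 37.3 in transgenic and 2 to 25 in wild type mice. Klf5 1430255_at had 4.8 to 14.7 in transgenic and 3.7 to 17.6 in wild type mice. Klf9 1452723_at had 25.1 to 38.4 in transgenic and 17 to 27.9 in wild type mice. Klf13 1456030_at had 3.5 to 8.1 in transgenic and 2.5 to 18.3 in wild type mice. The ranges of the groups overlapped in all 4.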

How the data were processed

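RNA of 6 mice was hybridised to Affymetrix arrays, 1 mouse per array. The authors deposited linear intensities, which per the submitters' processing notes came from MAS5. No source used here gives its version, scaling target or detection calls. The number of arrays limits the precision.

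R 4.3.3 with limma 3.58.1 and Python 3.11.15 with pandas 2.3.3 and matplotlib 3.10.9 were used. Without 64 control probe sets, the 40% with the lowest mean log2(signal + 16) were removed. Transgenic and wild type arrays were compared with lmFit and eBayes (trend), two-sided, with Benjamini-Hochberg adjustment over 27023 probe sets and a threshold of 0.05. The fit was tested on simulated data. Each gene takes its brightest tested probe set. Named genes are all members, up to 4 called genes of each other list by size of change, and the 3 profiles nearest to a called member. Members and lists were chosen with earlier results of these data known, and the promoter windows after values were seen. Alternatives were offsets of 1 and 64, no filter or one of 60%, other normalizations and variance models, array weights, blocks, the mean over probe sets and each array left out. The target list was also counted without Acss2, a choice made after seeing the data.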

Additional observations from a re-analysis of the deposited data

How the results depend on the processing

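With offsets of 1 and 64, no filter, a filter of 60%, no trend, robust estimation, or the Pcx class as a block, 1 Klf probe set was called lower (Klf15) and 0 higher. The Klf counts, lower and higher, were 3 and 0 with quantile normalization, 0 and 0 with array medians centred, 3 and 1 with array weights, 0 and 0 with the replicate number as a block, 5 and 1 with quantile normalization and no transgenic replicate 2 (lower: Klf2, Klf4 1417394_at, Klf9 1428288_at, Klf9 1436763_a_at and Klf15), and 12 and 1 with the Pcx class as a block and no transgenic replicate 2. With 1 array left out they were 0 to 4 lower and 0 to 1 higher. Over all tested probe sets, 350 and 452 were called lower and higher. This became 1448 and 1911 with array weights, 148 and 193 with the replicate block, 2558 and 2417 with quantile normalization and no transgenic replicate 2, and 2758 and 3179 with the Pcx class as a block and no transgenic replicate 2. With 1 array left out the counts were 50 to 1683 lower, fewest without wild type replicate 2 and most without transgenic replicate 2, and 91 to 1882 higher, with the same arrays at the ends. The cause was not tested. Over all tested probe sets the log2 fold changes had a median of −0.094, and of 0.023 once quantile-normalized.

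No label says whether replicate numbers pair the mice. The deviations from the group means correlated at −0.37, 0.089 and −0.051 for replicates 1, 2 and 3. The highest correlation of a transgenic with a wild type array was 0.45, for transgenic replicate 1 and wild type replicate 3, the arrays of the low Pcx class. With 3 mice per group these values cannot decide whether mice were paired. With the replicate block Klf15 had −1.66 (BH-adjusted p = 0.118).

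Signs turned round only for probe sets that were not called in either fit. The log2 fold changes were then, with array weights, 0.11 for Klf3 1431630_a_at, 0.053 for Klf3 1429360_at, 0.20 for Klf5 1451739_at, 0.11 for Klf7 1419355_at and 0.14 for Klf13 1432543_a_at. With quantile normalization they were 0.012 for Klf6 1459718_x_at and 0.061 for Klf7 1449439_at, and with array medians centred 0.082 for Klf7 1449439_at. With quantile normalization and no transgenic replicate 2 they were −0.038 for Klf3 1454666_at, 0.088 for Klf3 1431630_a_at, 0.16 for Klf3 1429360_at, 0.0027 for Klf5 1451739_at, 0.12 for Klf7 1419355_at and 0.41 for Klf13 1432543_a_at. With the Pcx class as a block and no transgenic replicate 2 they were 0.060 for Klf5 1451739_at, 0.11 for Klf7 1419355_at and 0.17 for Klf13 1432543_a_at. The mean over the probe sets of a gene gave −0.59 for Klf3 and −0.0084 for Klf13. With 1 array left out the ranges were −0.89 to 0.16 for Klf7 1419355_at, −1.54 to 0.16 for Klf3 1429360_at, −0.86 to 0.091 for Klf3 1431630_a_at, −1.53 to 0.39 for Klf13 1432543_a_at, −1.59 to 0.077 for Klf9 1436952_at, −0.54 to 0.19 for Klf6 1447448_s_at, −0.16 to 0.19 for Klf7 1449439_at, −0.43 to 0.069 for Klf5 1451739_at and −0.43 to 0.11 for Klf6 1459718_x_at.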
